A study of Homo sapiens with 13 samples.

Results

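The clustered protocadherins are 56 genes that lie next to one another on the long arm of chromosome 5 in 3 tandem clusters called alpha, beta and gamma. They were taken from the expression tables by gene symbol (PCDHA, PCDHB, PCDHGA, PCDHGB or PCDHGC with a number, and PCDHAC1 and PCDHAC2), which gave 16 alpha, 18 beta and 22 gamma genes of the 56831 genes listed. Their RNA was measured in 2 small cell lung cancer (SCLC) cell lines, H82 and H146, without treatment and after FHD-286, an inhibitor of SMARCA4 and SMARCA2, the ATPases that drive the SWI/SNF chromatin remodelling complex. The question was how blocking these ATPases changes the neuroendocrine state of SCLC cells. In H82 there were 3 untreated and 3 treated libraries, and in H146 there were 3 untreated and 4 treated ones. Both lines were wild type by label, grown in the same serum-containing medium, and treatment lasted 14 days at 100 nM with the drug renewed every 48 h. Each line stands for 1 patient's tumor, and no label says whether the libraries of a group came from separate cultures, so that p-values measure only the spread between these samples, which may be technical.

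Protocadherins are cadherin-like proteins of the cell surface. A neuron transcribes a handful of the clustered genes, and matching sets of protocadherins on contacting membranes bind each other, which lets neurites of the same cell recognize and avoid one another. Each alpha and gamma gene has its own promoter and first exon, coding for the extracellular and transmembrane part, and is spliced to constant exons shared by its whole cluster, whereas beta genes are single-exon genes without a constant part. Most of the genes are alternates that are switched on in different combinations in different cells. The C-type genes (PCDHAC1, PCDHAC2, PCDHGC3, PCDHGC4 and PCDHGC5) sit at the downstream end of the alpha and gamma clusters and are more widely used, and PCDHGC4 is known for its role in the survival of interneurons. Promoter choice depends on CTCF and cohesin, which bring a promoter to a distant enhancer, while DNA methylation and SMCHD1 keep the unused promoters silent.

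The promoters of the alternate genes share a short conserved element around the bases CGCT, which a script looked for in RefSeq promoter sequences (assembly GRCh38.p14, 250 bases before to 50 after each start). Of the 56 members, 47 had a promoter there, 13 alpha, 14 beta and 20 gamma. The 12-base word with CGCT found in most promoters of a cluster was CATGATGTCGCT in 8 of the 13 alpha promoters, GGTGGCGCTGCA in 10 of the 14 beta promoters and GGGCGCCGCTGT in 5 of the 20 gamma promoters, counted on the gene's strand (ties between words were settled by the alphabet). These words were picked from the same promoters, so that the counts describe them. Of all 35116 promoters, searched on both strands, 0.0228%, 0.0427% and 0.037% held the alpha, the beta and the gamma word. With up to 2 mismatches the word of the own cluster was found on the gene's strand in 11, 14 and 17 members, against 1.22%, 5.9% and 7.63% of all promoters on either strand. CGCT alone, on either strand, was in 46 of the 47 member promoters and in 70.0% of all. The windows of 30 bases below are shown for 9 members whose RNA carries the comparisons, all on the + strand, with the 4 bases at the CGCT position in capitals.
PCDHA2: agccacatgatgtCGCTgtccaccatagag
PCDHA4: agccacatgatgtCGCTctttaccacaaaa
PCDHAC1: ccctccttgtcgtCTCTattgccctcttgg
PCDHB2: agacgcggggtggCGCTgcagccttagaag
PCDHB4: agacgcagggtggCGCTgcaggctaagttg
PCDHB5: ggacgcctggtggCGCTgcaggctaagagt
PCDHGB1: aacctctgggcgcCGCTgtcgaccaaaagg
PCDHGC3: ggactctgtgtgcCGCTgtcggccaatgaa
PCDHGC4: tgagcccgggagcCGCTgtctgccaatcgg
The windows lie at chr5:140794784-140794813 (PCDHA2), chr5:140806982-140807011 (PCDHA4), chr5:140926057-140926086 (PCDHAC1), chr5:141094547-141094576 (PCDHB2), chr5:141121726-141121755 (PCDHB4), chr5:141135182-141135211 (PCDHB5), chr5:141350028-141350057 (PCDHGB1), chr5:141475883-141475912 (PCDHGC3) and chr5:141484955-141484984 (PCDHGC4). The alternate genes PCDHA2, PCDHA4, PCDHB2, PCDHB4, PCDHB5 and PCDHGB1 carried their cluster's word without a mismatch. PCDHGC4 had 1 mismatch and PCDHGC3 had 2. The closest stretch in the promoter of PCDHAC1 had 4 mismatches and that of PCDHAC2 had 5, and for both the CGCT letters were not at this position. Over all 47 promoters the first base at the CGCT position lay a median of 61.0 bases before the start.

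Values are TPM as the authors deposited them, which is reads per gene length scaled to the same sum in every library. The tables hold no read numbers, and limits that need counts are not given. In untreated H82 21227 to 21772 genes were at 1 TPM or more, in treated H82 15554 to 16633, against 17476 to 17965 in untreated and 18778 to 19309 in treated H146. The median log2 fold change of all genes tested was -0.56 in H82 and 0.25 in H146, and changes of the members are to be read against these shifts. The size factors that the median of ratios gave ran from 1.18 to 1.21 in untreated and from 0.807 to 0.878 in treated H82, and from 0.832 to 0.918 and from 1.05 to 1.16 in H146. All 5 neuroendocrine markers looked at (NEUROD1, INSM1, SYP, CHGA and NCAM1) were detected in both lines, with a summed level of 610 to 660 TPM in untreated and 178 to 577 TPM in treated H82, and 1377 to 1679 and 983 to 1244 TPM in H146. NEUROD1 stayed at or below 0.521 TPM in every H146 library. The markers did not all move with their sum. In H82 NEUROD1, SYP and CHGA were lower in every treated library than in every untreated one. INSM1 was higher there (12.5 to 15.8 TPM without and 32.05 to 296 TPM with the drug), and NCAM1 overlapped. In H146 only INSM1 did not overlap, at 1140 to 1405 TPM without and 758 to 1018 TPM with the drug. In treated H82 the 4 hepatocyte markers (ALB, APOA1, TTR and AFP) summed to 418 to 634 TPM, against 0.851 to 1.38 TPM in untreated H82, with AFP at or below 0.128 TPM in treated H82. The 4 fibroblast markers (COL1A1, COL1A2, DCN and LUM) summed to 6.99 to 32.0 TPM in treated and 0.912 to 1.84 TPM in untreated H82. The 5 epithelial markers reached 9.17 to 114 TPM in treated against 1.57 to 3.61 TPM in untreated H82. Treated H82 replicate 2 differed from the other 2 in single markers, with 296 TPM of INSM1 and 50.2 TPM of KRT19, and counts in H82 are also given without it. Over all genes it was treated H82 replicate 1 that correlated least with the other libraries of its group (r = 0.959, against 0.973 for replicate 2 and 0.980 for replicate 3, across genes). Among the treated H146 libraries it was replicate 2 (r = 0.966, against 0.981 to 0.985 for the others). In H146 the epithelial sum was 2234 to 2404 TPM without and 575 to 647 TPM with the drug. EPCAM, KRT8, KRT18 and KRT19 were lower in every treated H146 library. CDH1, also on this list, overlapped at 45.5 to 60.8 TPM without and 55.9 to 90.2 TPM with the drug. The part of these markers in the results was not tested. In such bulk RNA, fewer cells expressing a gene and less RNA per cell cannot be told apart.

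Before treatment PCDHAC1 and PCDHAC2 had the highest alpha means in both lines, while several alternates differed in level. The difference between the untreated lines was not tested. The level per length of a member is its TPM. In untreated H82 the alpha cluster was led by PCDHAC2 (7.28 ± 0.844 TPM, SD, n = 3), PCDHAC1 (3.40 ± 0.558 TPM) and PCDHA11 (2.73 ± 0.513 TPM), and the beta cluster by PCDHB4 (3.34 ± 0.395 TPM), PCDHB12 (2.58 ± 0.157 TPM) and PCDHB11 (2.43 ± 0.431 TPM). PCDHB12 and PCDHB11 did not differ beyond their spread, and neither did PCDHAC1 and PCDHA11. In untreated H146 PCDHAC1 (6.70 ± 2.41 TPM), PCDHAC2 (2.40 ± 0.786 TPM) and PCDHA4 (1.32 ± 0.291 TPM) were the highest alpha members, and PCDHB5 (10.7 ± 1.92 TPM), PCDHB2 (7.08 ± 1.08 TPM) and PCDHB10 (6.30 ± 1.86 TPM) the highest beta members. PCDHB2 and PCDHB10 overlapped. PCDHB5, the leading beta gene of H146, had a mean of 0.156 TPM in H82, and PCDHA11, next in order among the alpha genes of H82, had a mean of 0.0149 TPM in H146. The C-type gene PCDHGC3 led the gamma cluster in both lines, at 3.54 ± 0.530 TPM in H82 and 7.84 ± 2.73 TPM in H146. A mean of at least 1 TPM was reached by 12 members in untreated H82 and 13 in untreated H146. PCDHA14, a pseudogene, was listed at 0 in all 13 libraries. In the gene models used here 100% of its exon bases also lie in another member. Its value of 0 may thus not show whether it is transcribed.

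**Figure D1:**
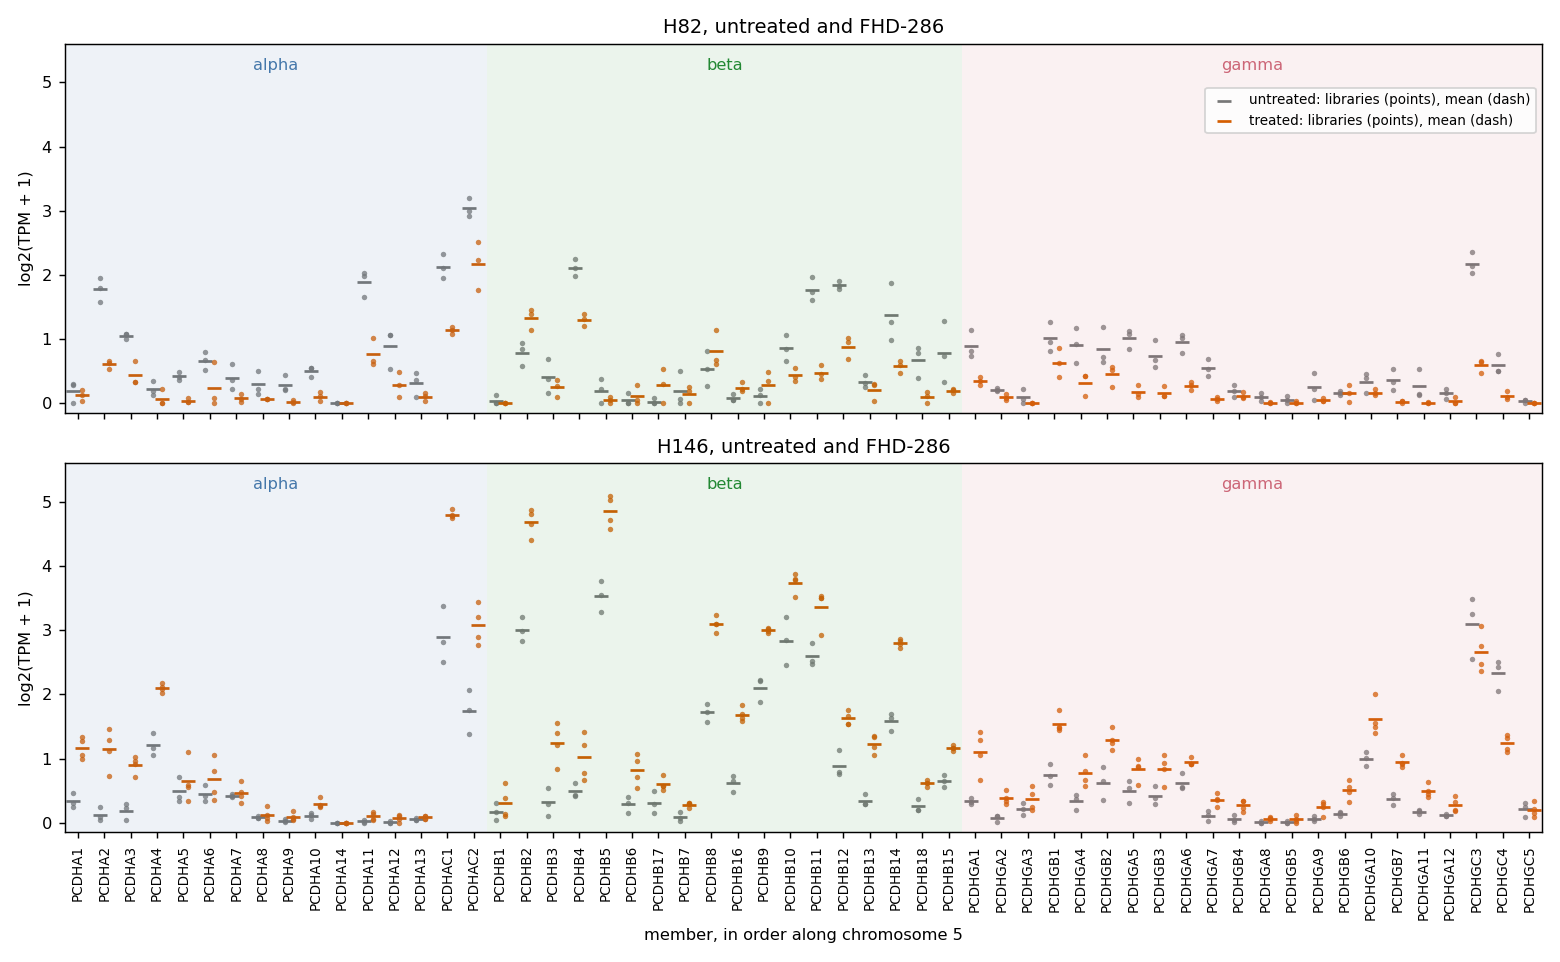
Level of each of the 56 members, as log2(TPM + 1), in H82 (top) and H146 (bottom), in order along chromosome 5, with 1 point per library and a dash at the group mean. Treated H82 libraries sit mostly below the untreated ones, but all above them for PCDHB2 and PCDHB16. Treated H146 libraries sit mostly above the untreated ones, but all below them for PCDHGC4. PCDHGC3 and PCDHGC5 of H146 overlap between the groups, with lower treated means.

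In H146, treated libraries held more alpha and beta protocadherin RNA. The summed level of the alpha cluster was 11.3, 16.6 and 8.94 TPM in the untreated libraries and 44.04, 45.8, 42.8 and 40.8 TPM in the treated ones. That of the beta cluster was 40.5, 48.2 and 33.0 TPM without and 104, 99, 114 and 113 TPM with FHD-286. Neither cluster overlapped between the groups, and the means were 3.53 and 2.65 times higher with treatment. The summed gamma level did overlap, with 18.6, 20.5 and 12.4 TPM in untreated and 20.2, 24.5, 18.2 and 17.9 TPM in treated libraries. In H82 all 3 sums were lower with treatment and did not overlap. The alpha sum was 21.8, 20.4 and 19.4 TPM without and 5.71, 7.48 and 8.78 TPM with the drug. The beta sum was 12.6, 16.7 and 14.7 TPM without and 6.84, 8.77 and 6.46 TPM with it. The gamma sum was 12.8, 12.985 and 11.9 TPM without and 2.76, 3.05 and 3.46 TPM with it, and its untreated mean was 4.07 times the treated mean, the widest of the 3 gaps in H82. Scaled by the median of ratios, the log2 ratio of the gamma means in H146 went from 0.24 to -0.066, and the ratios of the alpha, beta and gamma means in H82 became -1.003, -0.50 and -1.53 on the log2 scale.

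**Figure D2:**
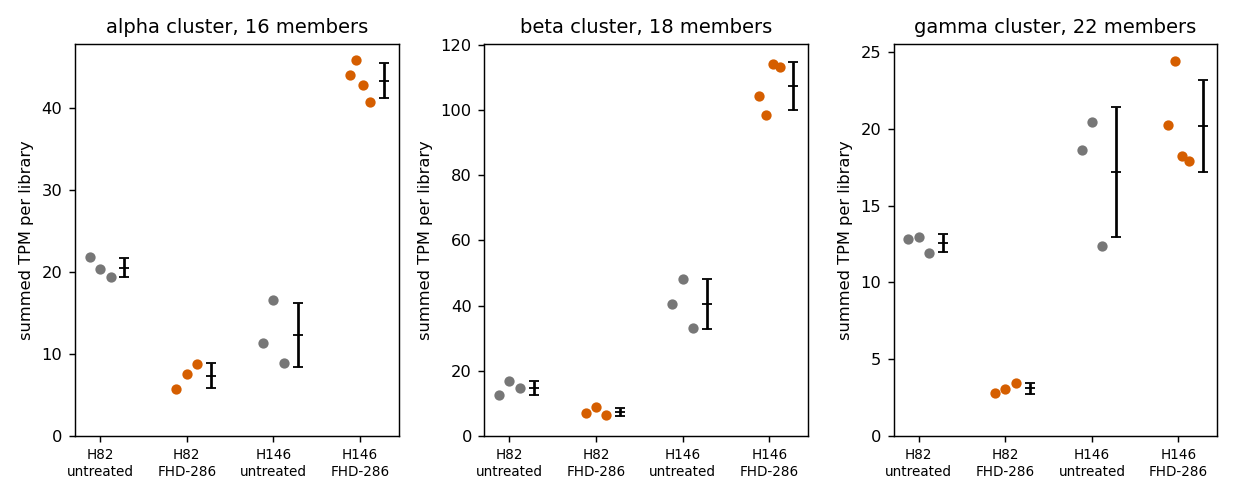
Summed TPM of the members of each cluster in each library (points), with mean and SD of each group (bars, n = 3 or 4). The alpha and beta sums of treated H146 lie above the untreated ones, those of treated H82 lie below, and the gamma sums of H146 overlap between 17.9 and 20.5 TPM.

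The test of single members in H146 used limma on log2(TPM + 1) within the line. Without a filter on low values, so that every member above 0 TPM in any library entered, 26 of 55 members (47.3%) rose and 1 fell, against 14.4% and 7.57% of all 40184 genes. The median log2 fold change of these 55 members was 0.36, against 0.08 over all genes. The rises numbered 6 of 15 alpha, 13 of 18 beta and 7 of 22 gamma members, and the member that fell was PCDHGC4. After scaling by the median of ratios 17 of 55 (30.9%) rose, against 9.14% of all genes. Leaving out untreated replicate 1 left 11 rises, against 7.70% of all genes, and leaving out untreated replicate 3 left 14 (25.5%), against 7.57%. Treated and untreated libraries did not overlap for 40 members, with all treated libraries above in 39 (70.9% of 55) and below in 1, against 23.2% and 10.3% of all genes. With a filter on low values (at least 1 TPM in 3 libraries), 23 members were tested, of which 21 rose and 1 fell, where 32.5% of all 19585 genes rose and 15.5% fell. Of the 23, 9 passed the filter through treated libraries alone and so had to differ. Under quantile normalization 16 of the 23 rose and 2 fell, with 23.7% and 20.8% of all genes.

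PCDHAC1, a C-type alpha gene, had the largest log2 fold change of all members in H146 on the log2(TPM + 1) scale. By the ratio of mean TPM, several members lower in level were ahead of it, with PCDHA2 the furthest (13.4 against 4.01). PCDHAC1 was at 6.06, 9.37 and 4.68 TPM in untreated and at 25.9, 26.4, 28.5 and 26.8 TPM in treated libraries. All treated values were above all untreated ones, with means of 6.70 ± 2.41 (SD, n = 3) and 26.9 ± 1.10 TPM (n = 4). The log2 fold change was 1.90 (SE 0.20, adjusted p = 0.000215, limma). PCDHAC2, the second C-type alpha gene, was at 2.38, 3.19 and 1.62 TPM without and at 8.21, 9.91, 5.82 and 6.40 TPM with FHD-286. The groups were again apart (log2 fold change 1.34, SE 0.23, adjusted p = 0.00228). Of the alternate alpha genes, PCDHA2 went from 0.0638, 0.190 and 0.0288 TPM to 1.76, 0.651, 1.45 and 1.17 TPM, where it had been nearly silent. It passed the filter through treated libraries alone (log2 fold change 1.02, SE 0.22, adjusted p = 0.00558). PCDHA4, the alternate gene with the highest level in the alpha cluster of H146, was at 1.24, 1.64 and 1.08 TPM without and 3.07, 3.54, 3.35 and 3.26 TPM with treatment, with no overlap (log2 fold change 0.90, SE 0.17, adjusted p = 0.00291).

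In the unfiltered fit of H146, PCDHA1, PCDHA2, PCDHA3 and PCDHA4 and then PCDHAC1 and PCDHAC2 rose, and none of the 9 genes with a value between them, PCDHA5 to PCDHA13, passed the threshold. PCDHA10 came closest of these, with a log2 fold change of 0.18 (SE 0.07, adjusted p = 0.0872, limma). These are low values, where the log2(TPM + 1) scale understates a change: the treated libraries of PCDHA10 and PCDHA11 were also above all untreated ones, with means 2.84 and 5.15 times higher at no more than 0.325 TPM. The order of the leading alpha genes stayed the same with treatment (PCDHAC1, PCDHAC2, PCDHA4), and the C-type share of alpha TPM was 73.6% ± 2.82 (SD, n = 3) without and 79.6% ± 1.60 (n = 4) with the drug.

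Nearly the whole beta cluster was higher in treated H146 at the deposited scale. Of its 18 genes, 17 had all treated libraries above all untreated ones, against 23.2% of all genes. The other, PCDHB1, ran from 0.0319 to 0.234 TPM without and from 0.0784 to 0.532 TPM with treatment. By limma without a filter 13 of the 18 rose, against 14.4% of all genes, and after the median of ratios 8, against 9.14%. PCDHB5, the most abundant member in treated H146, was at 10.7, 12.6 and 8.71 TPM in untreated and 25.4, 22.9, 33.1 and 31.8 TPM in treated libraries (log2 fold change 1.33, SE 0.18, adjusted p = 0.000696). PCDHB2 had the largest log2 fold change of the beta genes on the log2(TPM + 1) scale, whereas PCDHB3, PCDHB13, PCDHB16 and PCDHB6 had larger ratios of mean TPM (5.55, 4.99, 4.09 and 3.55, against 3.53). Its untreated libraries held 6.92, 8.23 and 6.09 TPM and its treated ones 24.3, 20.1, 28.4 and 27.2 TPM, a log2 fold change of 1.68 (SE 0.17, adjusted p = 0.000154). PCDHB8 was lower in level and changed by a similar factor, from 2.32, 2.63 and 1.98 TPM to 8.46, 6.801, 7.59 and 7.56 TPM (log2 fold change 1.38, SE 0.16, adjusted p = 0.000299). PCDHB10 was at 6.22, 8.19 and 4.48 TPM without and at 12.8, 13.7, 10.4 and 12.9 TPM with the drug. Its groups were apart but the untreated libraries spread widely (log2 fold change 0.91, SE 0.20, adjusted p = 0.00663). PCDHB11 was at 4.71, 5.99 and 4.53 TPM without and at 6.57, 10.3, 10.6 and 10.3 TPM with treatment (log2 fold change 0.77, SE 0.20, adjusted p = 0.0132), and its call was lost under the median of ratios (adjusted p = 0.0581) and under quantile normalization (adjusted p = 0.0670). PCDHB12 was at 0.722, 1.19 and 0.698 TPM and then at 2.18, 1.90, 2.38 and 1.91 TPM (log2 fold change 0.73, SE 0.18, adjusted p = 0.00983). PCDHB4, the leading beta gene of H82, stayed low in H146 and was not tested with the filter, with 0.530, 0.351 and 0.342 TPM without and 1.32, 1.67, 0.589 and 0.707 TPM with FHD-286.

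In the gamma cluster of H146 PCDHGC4 fell, and several alternates rose. PCDHGC4 was at 4.70, 4.40 and 3.14 TPM in untreated and at 1.15, 1.58, 1.49 and 1.23 TPM in treated libraries. All treated libraries were below all untreated ones, and the untreated mean was 2.99 times the treated one. The log2 fold change was -1.09 (SE 0.18, adjusted p = 0.00189, limma), and it was -1.32 under the median of ratios and -1.35 under quantile normalization, so that PCDHGC4 fell under all 3 scalings. PCDHGC3 was at 8.51, 10.2 and 4.84 TPM without and at 5.72, 7.33, 4.54 and 4.16 TPM with treatment, which overlap (log2 fold change -0.43, SE 0.26, adjusted p = 0.208). Only under quantile normalization, of the alternatives tried, did it pass (log2 fold change -0.69, adjusted p = 0.0490). PCDHGC5 was at 0.0700 to 0.232 TPM without and 0.0645 to 0.264 TPM with the drug, too low to be tested with the filter. Among the alternates, PCDHGB1 was at 0.506, 0.884 and 0.658 TPM without and at 1.82, 2.36, 1.73 and 1.78 TPM with FHD-286 (log2 fold change 0.80, SE 0.18, adjusted p = 0.00671). PCDHGA1 went from 0.232, 0.307 and 0.251 TPM to 1.07, 0.596, 1.66 and 1.44 TPM (log2 fold change 0.77, SE 0.22, adjusted p = 0.0182), and PCDHGB2 from 0.283, 0.825 and 0.567 TPM to 1.82, 1.45, 1.37 and 1.20 TPM (log2 fold change 0.67, SE 0.19, adjusted p = 0.0211). For each of these 3 alternates the groups did not overlap, but each passed the filter through treated libraries alone (unfiltered adjusted p = 0.0208, 0.0316 and 0.0460). PCDHGA10 was at 1.15, 1.01 and 0.854 TPM without and 1.80, 3.01, 1.95 and 1.63 TPM with treatment (log2 fold change 0.61, SE 0.20, adjusted p = 0.0335), a call that was lost under 8 of the alternatives, the unfiltered fit among them (adjusted p = 0.0872). The calls of PCDHGA1 and PCDHGB2 were lost under quantile normalization (adjusted p = 0.0608 and 0.0822), and that of PCDHGB2 also under the median of ratios (adjusted p = 0.0581).

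The makeup of the gamma cluster thus differed between the groups of H146, a comparison within each library that does not depend on scaling between libraries. PCDHGC3, PCDHGC4 and PCDHGC5 held 64.9% to 72.1% of gamma TPM in untreated and 30.96% to 36.9% in treated libraries (means 69.7% ± 4.16, SD, n = 3, and 34.1% ± 2.54, n = 4). The share of PCDHGC4 alone had a mean of 23.996% without and 6.79% with treatment. The PCDHGA and PCDHGB genes summed to 5.19, 5.73 and 4.36 TPM without and 13.1, 15.4, 12.1 and 12.4 TPM with treatment. In H82 the C-type share of gamma TPM was 27.1% to 35.9% without and 16.1% to 23.0% with the drug, while that of alpha TPM was 50.9% to 53.0% without and 65.0% to 66.8% with it. The shares rest on how reads of the constant exons, which belong to several genes, were assigned, and this is not stated. In the gene models used here 27.5% to 64.4% of the exon bases of a gamma gene lie in another member too, against 0% for the beta genes.

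**Figure D3:**
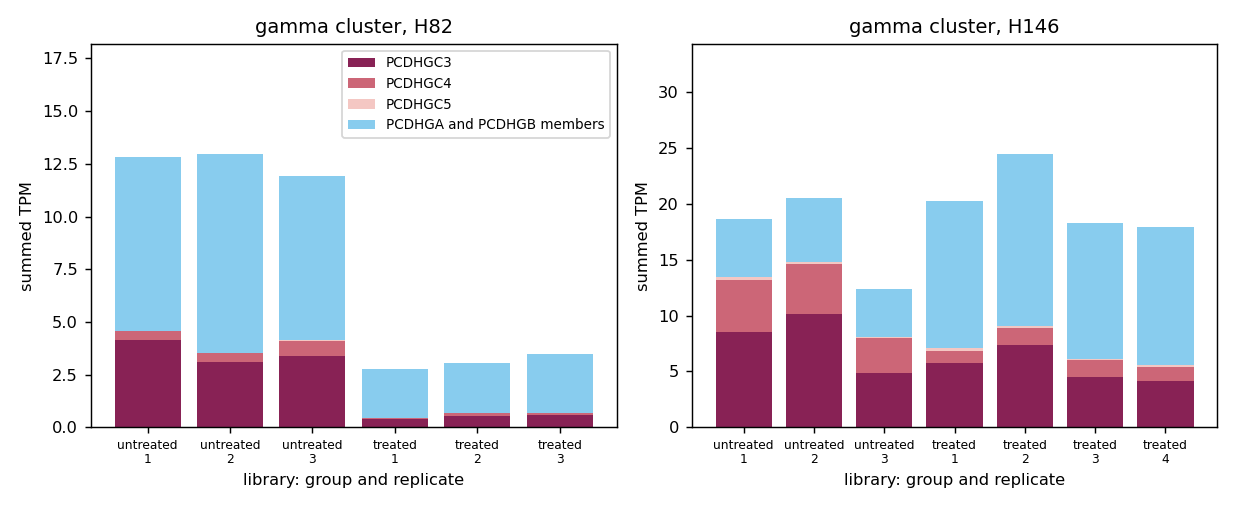
Summed TPM of the gamma cluster in each library, split into PCDHGC3, PCDHGC4, PCDHGC5 and the 19 alternate genes. In H146 the alternates take more and PCDHGC4 less of the bar in each of the 4 treated libraries than in each untreated one, and in H82 all parts of the bar are lower with treatment.

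In H82 most members had lower TPM with treatment, and by limma the share that fell was close to that of all genes. Mean TPM was lower with treatment for 48 members and higher for 7. Without a filter, 16 of 55 members (29.1%) fell and 0 rose by limma, against 25.9% and 6.45% of all 37980 genes, and their median log2 fold change was -0.32, against -0.26 over all genes. The falls numbered 6 of 15 alpha, 4 of 18 beta and 6 of 22 gamma members. After scaling by the median of ratios 6 of 55 (10.9%) fell, against 18.4% of all genes. Without treated replicate 2, 5 members (9.09%) fell, against 18.6% of all genes. Without treated replicate 3 it was 6 (10.9%) against 19.0%, and without untreated replicate 1 it was 9 (16.4%) against 22%. All treated libraries lay below all untreated ones for 31 members (56.4% of 55) and above for 2, against 35.1% and 11.5% of all genes. With the filter on low values 10 members were tested, of which 9 fell and 0 rose, where 45.5% of all 19770 genes fell and 13.1% rose. Of the 10, 4 passed through untreated libraries alone and 1 through treated libraries alone. The direction depended on the scaling: under quantile normalization 0 of the 10 fell and 2 rose, with 24.6% and 26.6% of all genes, and the log2 fold changes of PCDHAC1, PCDHB4 and PCDHB12 turned to 0.077, 0.26 and 0.16. Leaving out untreated replicate 1, 2 or 3 left 2, 4 or 2 falls, but of only 6 members tested. A member at 1 TPM in untreated libraries alone could then no longer pass the filter, so these counts are not comparable with the 9. Leaving out treated replicate 2 left 8 falls of 9 members tested. The treated libraries behind these values are those with a hepatocyte marker sum of 418 to 634 TPM, and its part was not tested.

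PCDHGC3 had the most negative log2 fold change in H82 on the log2(TPM + 1) scale, on which a change of a low gene is understated. It was at 4.13, 3.10 and 3.39 TPM in untreated and 0.396, 0.562 and 0.587 TPM in treated libraries. The groups did not overlap, and the untreated mean was 6.88 times the treated one (log2 fold change -1.58, SE 0.19, adjusted p = 0.000654, limma, and -1.30 under the median of ratios, adjusted p = 0.00152). Under quantile normalization it was -0.47 (adjusted p = 0.0980). It passed the filter through untreated libraries alone (unfiltered adjusted p = 0.00436). PCDHGC4 was too low in H82 for the filter, at 0.424, 0.417 and 0.700 TPM without and 0.0480, 0.140 and 0.0769 TPM with the drug. These groups were apart as well (unfiltered log2 fold change -0.47, SE 0.13, adjusted p = 0.0316). PCDHGC5 was listed at 0 in all 3 treated and in 1 untreated library, and reached at most 0.0410 TPM. The alternates PCDHGA5, PCDHGB1 and PCDHGB2 were below the filter too. PCDHGA5 was at 0.803, 1.18 and 1.11 TPM without and 0.104, 0.0726 and 0.222 TPM with FHD-286 (unfiltered log2 fold change -0.84, SE 0.17, adjusted p = 0.0113). PCDHGB1 overlapped between the groups, at 0.763, 1.41 and 0.944 TPM without and 0.325, 0.552 and 0.828 TPM with treatment.

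Both C-type alpha genes were lower in treated H82, the opposite of H146. PCDHAC1 was at 3.31, 3.997 and 2.89 TPM without and at 1.29, 1.20 and 1.12 TPM with the drug (log2 fold change -0.99, SE 0.19, adjusted p = 0.00413). PCDHAC2 was at 8.23, 6.61 and 6.999 TPM without and 2.42, 3.69 and 4.74 TPM with it (log2 fold change -0.87, SE 0.24, adjusted p = 0.0183, and -0.46 under the median of ratios, adjusted p = 0.130). Neither gene overlapped between groups at the deposited scale. Among the alternates PCDHA2 went from 2.00, 2.48 and 2.87 TPM to 0.454, 0.573 and 0.548 TPM (log2 fold change -1.17, SE 0.19, adjusted p = 0.00198), and PCDHA11 from 2.96, 2.15 and 3.09 TPM to 0.532, 0.574 and 1.04 TPM (log2 fold change -1.13, SE 0.22, adjusted p = 0.00405). Both had no overlap, PCDHA2 passed the filter through untreated libraries alone (unfiltered adjusted p = 0.0115), and both were near 0 under quantile normalization (log2 fold changes -0.03 and -0.01).

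The beta genes of H82 did not all go the same way. PCDHB11 was at 2.06, 2.90 and 2.34 TPM in untreated and 0.370, 0.298 and 0.516 TPM in treated libraries (log2 fold change -1.30, SE 0.19, adjusted p = 0.00141, and -1.05 under the median of ratios, adjusted p = 0.00343). It passed the filter through untreated libraries alone (unfiltered adjusted p = 0.00812). PCDHB12 went from 2.57, 2.74 and 2.43 TPM to 0.617, 0.931 and 1.02 TPM (log2 fold change -0.95, SE 0.19, adjusted p = 0.00450). PCDHB4 went from 2.96, 3.32 and 3.75 TPM to 1.499, 1.63 and 1.30 TPM (log2 fold change -0.81, SE 0.19, adjusted p = 0.00885, and -0.47 under the median of ratios, adjusted p = 0.0737). These 3 genes led the cluster before treatment and had no overlap. PCDHB2 had the opposite sign and became the leading beta gene of treated H82. It was at 0.930, 0.503 and 0.794 TPM without and 1.22, 1.75 and 1.64 TPM with the drug, with all treated libraries above (log2 fold change 0.54, SE 0.20, adjusted p = 0.0515). It missed the threshold at the deposited scale and passed under the median of ratios (0.79, adjusted p = 0.0117) and quantile normalization (1.47, adjusted p = 0.00137). Its share of beta TPM had a mean of 5.26% without and 21.0% with treatment. PCDHB8 was at 0.210, 0.757 and 0.448 TPM without and 0.523, 1.22 and 0.605 TPM with treatment, and the groups overlapped.

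**Figure D4:**
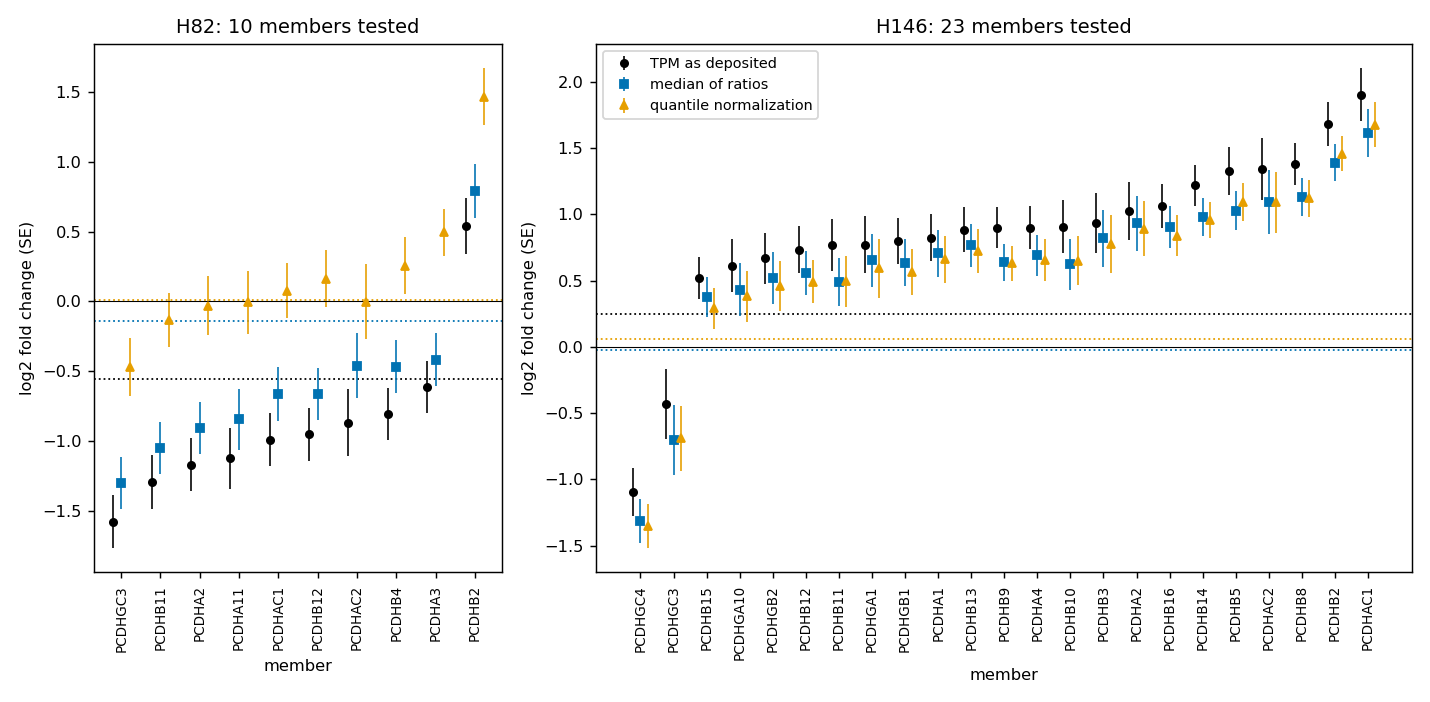
Log2 fold change with its SE of each member tested in H82 (left) and H146 (right), at the deposited TPM scale, after the median of ratios and after quantile normalization, with dotted lines at the median of all genes tested under each scaling. In H146 the sign of all 23 members is the same under the 3 scalings, whereas in H82 quantile normalization brings most members to between -0.47 and 0.26.

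Whether H82 and H146 responded differently was tested with an interaction term for line and drug, with all 13 libraries in the same fit. Of 55 members in the unfiltered fit, 40 responded more positively in H146 than in H82 and 0 more negatively, against 28.6% and 7.70% of all 44058 genes. With the filter 27 were tested, and 26 were more positive and 1 more negative in H146, where 46.0% and 13.3% of all 24374 genes passed. PCDHA1, PCDHB3, PCDHB13 and PCDHB16 passed this filter through treated H146 libraries alone, which favors a more positive difference. PCDHA2, PCDHA3, PCDHB15, PCDHGA1, PCDHGA6, PCDHGB1 and PCDHGB2 reached 1 TPM only in untreated H82 and treated H146 libraries. Passing in that way favors a more positive difference as well, so the filtered counts and median are descriptions. The median difference of the 27 was 1.15 on the log2 scale, against 0.75 over all genes tested. After the median of ratios 22 of the 27 were more positive, against 30.8% of all genes (25.5% more negative), and after quantile normalization 6 were, against 25.0% (25.4% more negative). The widest differences on the log2(TPM + 1) scale were those of PCDHAC1 (2.89, SE 0.27, adjusted p = 5.37e-06, limma), PCDHAC2 (2.21, SE 0.34, adjusted p = 0.000166) and PCDHA2 (2.19, SE 0.26, adjusted p = 2.88e-05). All 3 passed after quantile normalization as well (1.65, 1.06 and 1.03). PCDHB2, higher with treatment in both lines, differed by 1.14 (SE 0.25, adjusted p = 0.00201) and by 0.02 after quantile normalization (adjusted p = 0.952). PCDHGC4 had a difference of -0.62 (SE 0.23, adjusted p = 0.0333), which did not pass in the unfiltered fit (adjusted p = 0.0686) and turned to 0.20 with a pseudocount of 0.1 (adjusted p = 0.731). By the ratio of mean TPM it was lower with treatment by a factor of 5.83 in H82 and 2.99 in H146.

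**Figure D5:**
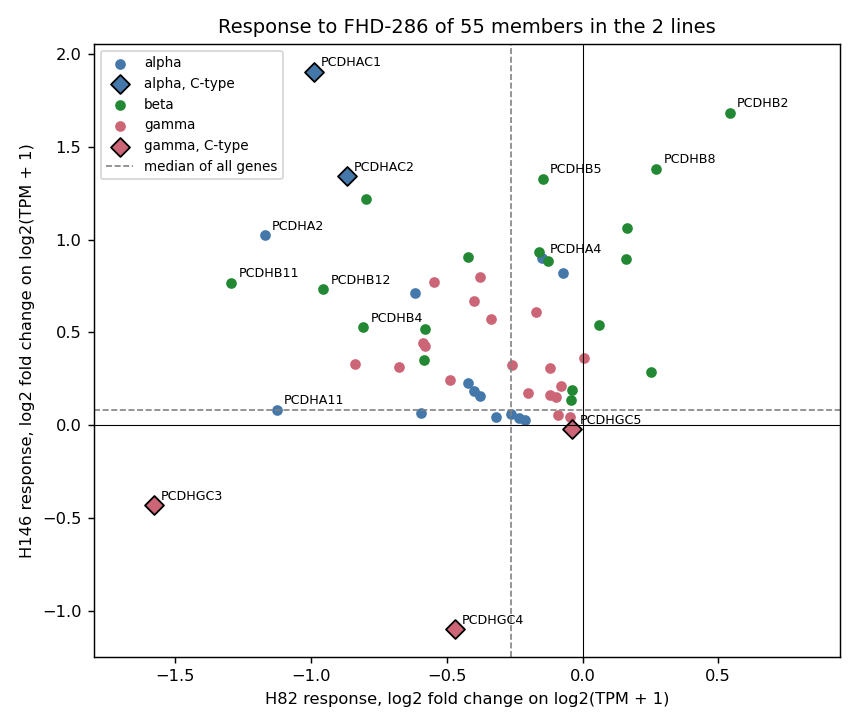
Log2 fold change with FHD-286 on the log2(TPM + 1) scale in H82 (horizontal) against H146 (vertical) for 55 members in the unfiltered fit, colored by cluster, with C-type genes as diamonds and dashed lines at the medians of all genes (-0.26 and 0.08). PCDHAC1 and PCDHAC2 lie at the upper left, PCDHGC3 and PCDHGC4 at the lower left and PCDHB2 at the upper right.

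Genes that act on the clusters were taken from lists written from general knowledge. The 22 genes for promoter choice and silencing were all tested in both lines. At the deposited scale 2 fell and 9 rose in H146, where 15.5% of all genes fell and 32.5% rose. After the median of ratios 5 fell and 5 rose, where 25.1% of all genes fell and 21.3% rose. In H82 12 fell and 1 rose, with 45.5% and 13.1% of all genes. The median of ratios left 3 falls and 2 rises in H82, with 32.9% and 24.2% of all genes. CTCF, which binds the promoters, rose in H146 from 28.7 ± 4.06 to 48.4 ± 10.4 TPM (log2 fold change 0.72, SE 0.19, adjusted p = 0.0135), a call lost under the median of ratios (0.41, adjusted p = 0.0615), and in H82 it was at 25.9 ± 0.886 and 24.8 ± 9.49 TPM (adjusted p = 0.708). SMCHD1, a silencer of the clusters, rose in H146 from 21.6 ± 4.33 to 38.2 ± 3.94 TPM (log2 fold change 0.81, SE 0.16, adjusted p = 0.00449) and fell in H82 from 34.1 ± 4.71 to 17.1 ± 5.63 TPM (-1.004, SE 0.26, adjusted p = 0.0144), a fall that missed the threshold with the median of ratios (-0.53, adjusted p = 0.0952). DNMT3B, which methylates their promoters, fell in H146 from 99.6 ± 17.7 to 46.8 ± 10.7 TPM (-1.08, SE 0.20, adjusted p = 0.00327). In H82 it was at 13.8 ± 0.711 and 10.51 ± 1.20 TPM (adjusted p = 0.0887). NIPBL, the cohesin loader, had the largest fall of the list in H82, from 51.7 ± 4.65 to 15.2 ± 5.39 TPM (-1.76, SE 0.27, adjusted p = 0.00170). WIZ, a zinc finger partner of the EHMT1 and EHMT2 methyltransferases, had the largest rise in both lines (0.61, adjusted p = 0.00834 in H82, and 1.20, adjusted p = 0.000582 in H146).

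The protocadherins outside the clusters did not move as 1 group. Of 12 genes, 8 were tested in H146, where 4 rose and 1 fell, and 4 in H82, where 1 rose and 0 fell. The median of ratios gave 4 rises and 2 falls in H146 and 2 rises in H82. The counts of this paragraph are to be read against all genes. At the deposited scale 32.5% of all genes rose and 15.5% fell in H146, and 13.1% rose and 45.5% fell in H82. After the median of ratios 21.3% rose and 25.1% fell in H146, and 24.2% rose and 32.9% fell in H82. PCDH17 rose from 1.27 ± 0.249 to 43.6 ± 7.69 TPM in H146 (log2 fold change 4.29, SE 0.18, adjusted p = 2.9e-06), more than any clustered member, and PCDH1 fell from 16.4 ± 1.86 to 6.92 ± 3.05 TPM (-1.21, SE 0.28, adjusted p = 0.00787). PCDH8 was the riser in H82 (1.84 ± 0.282 to 4.63 ± 1.66 TPM, log2 fold change 0.95, SE 0.25, adjusted p = 0.0155). Of 25 other cadherins and catenins, 19 were tested in H146 with 9 rises and 4 falls (8 and 6 after the median of ratios), led by CDH6 (2.03, SE 0.24, adjusted p = 0.000327) and CDH8 (-1.04, SE 0.27, adjusted p = 0.0133). In H82 10 were tested with 0 rises and 3 falls, of which CDH22 was the largest (-2.40, SE 0.22, adjusted p = 0.000261). The median of ratios made that 1 rise and 3 falls, and quantile normalization 3 rises and 1 fall (26.6% and 24.6% of all genes). Of 20 genes for protocadherin signalling and cleavage, 7 rose and 5 fell in H146 at the deposited scale and 4 rose and 7 fell after the median of ratios, with PSEN2, a catalytic subunit of gamma-secretase, at the top (1.09, SE 0.27, adjusted p = 0.0107) and the kinase FYN at the bottom (-1.35, SE 0.16, adjusted p = 0.000319). In H82 5 rose and 5 fell, which the median of ratios made 7 rises and 0 falls, with CYFIP1, a subunit of the WAVE complex, and the gamma-secretase subunit APH1B at the extremes (1.05, adjusted p = 0.0279, and -0.94, adjusted p = 0.00323, which became -0.48, adjusted p = 0.0583, under the median of ratios).

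Genes that neighbor the clusters on the same chromosome arm gave a local comparison. Of 17, 15 were tested in H146, where 5 rose and 2 fell with a median log2 fold change of 0.37, and 14 in H82, where 2 rose and 3 fell with a median of -0.18. Of all genes 32.5% rose and 15.5% fell in H146, and 13.1% rose and 45.5% fell in H82. The median of ratios gave 1 rise and 3 falls of the neighbors in H146 (median 0.086), with 21.3% and 25.1% of all genes. It turned H82 to 6 rises and 1 fall (median 0.27), with 24.2% and 32.9% of all genes. ZMAT2, upstream of the alpha cluster and named after its values were seen, was at 116 ± 3.42 and 192 ± 42.6 TPM in H82 and rose (log2 fold change 0.70, SE 0.19, adjusted p = 0.0170). In H146 it rose from 186 ± 20.9 to 269 ± 30.8 TPM (0.53, SE 0.13, adjusted p = 0.0117), a call lost under the median of ratios (0.21, adjusted p = 0.243). TAF7, between the beta and gamma clusters, was at 156 ± 1.95 and 194 ± 27.99 TPM in H146 (log2 fold change 0.30, SE 0.13, adjusted p = 0.0940) and fell in H82 (-0.56, SE 0.12, adjusted p = 0.00695), and scaling by the median of ratios brought this to -0.071 (adjusted p = 0.610). DIAPH1, downstream of the gamma cluster, had log2 fold changes of 0.40 (adjusted p = 0.0521) in H146 and -0.47 (adjusted p = 0.251) in H82. SLC25A2, also between the beta and gamma clusters, stayed at group means of 0.0610 TPM or lower. Farther out, SLC35A4 rose in H146 (2.41, SE 0.38, adjusted p = 0.00137), and in H82 ARAP3 fell (-1.79, SE 0.26, adjusted p = 0.00128) and NDUFA2 rose (1.30, SE 0.15, adjusted p = 0.000608). PCDH1, counted above, is also 1 of these 17 genes and had the largest fall among them in H146. The cluster pseudogenes PCDHB19P, PCDHGB8P and PCDHGB9P were too low to be tested in either line.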

How the data were processed

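The authors trimmed reads with Trim Galore 0.4.4, mapped and counted them per gene with STAR on hg38 and GENCODE 28, ran DESeq2, and deposited 1 table of TPM per line, per the labels and the methods. How gene length was taken is not stated, nor whether counting used strand. Reads of constant exons or of near-identical copies may have been split between members or left uncounted. TPM holds no counts, so limma 3.58.1 (R 4.3.3, lmFit and eBayes with trend) was run on log2(TPM + 1) instead of a count test. A fold change on this scale understates that of low genes. A gene was tested where 3 or more libraries of the line reached 1 TPM. Tests were two-sided, p-values were adjusted by Benjamini-Hochberg across these genes at a threshold of 0.05, and all genes above 0 TPM in any library were tested as an alternative. Each line had its own fit, with treatment as the only term. Errors of TPM are SD over libraries, and no 2 libraries held identical values.

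The members, gene lists, comparisons and alternatives were chosen with earlier results of these data known. Named with values were the 5 C-type genes, the 3 highest members of each cluster, line and group, the 3 largest rises and falls past the threshold in each cluster and line, the largest rise and fall of each list, and CTCF, SMCHD1, DNMT3B, TAF7, SLC25A2 and DIAPH1. Other members appear where they were singled out after their values were seen. Gene models and shared exon bases are from GENCODE 44 on hg38. PCDHB17 and PCDHB18 are older symbols of pseudogenes. The fit was tested on simulated data. Python 3.11.15 with pandas 2.3.3, numpy 2.4.6 and matplotlib 3.10.9 was used for tables and plots. Alternatives were a pseudocount of 0.1, no filter, the median of ratios, quantile normalization, a block for the replicate number, no trend, and each library left out. The result of 1 marker list is not reported here.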

Additional observations from a re-analysis of the deposited data

Results flagged for a closer look

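In treated H146, the only group of 4 libraries, 1 library was far from the other 3 for 2 of the 23 items checked (20 named members and 3 cluster sums), where chance marks about 1 in 20 groups. PCDHB11 was at 6.57 TPM in replicate 1, below the other 3 libraries, and PCDHGB1 was at 2.36 TPM in replicate 2, above the other 3. Without these libraries both members still passed the threshold.

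The response differed between the lines by the interaction test for all 18 named members that could be tested, where 46.0% of all genes were more positive and 13.3% more negative in H146. Members were named partly for their response in these libraries, so that the count over the 18 is a description. After the median of ratios 15 of the 18 passed, and after quantile normalization 6 did. On the log2 scale, the H146 response minus the H82 response was -0.62 for PCDHGC4, 0.78 for PCDHGA10, 1.05 for PCDHA4, 1.07 for PCDHGB2, 1.11 for PCDHB8, 1.14 for PCDHB2 and 1.15 for PCDHGC3. It was 1.18 for PCDHGB1, 1.21 for PCDHA11, 1.32 for PCDHGA1, 1.33 for PCDHB10 and PCDHB4, 1.48 for PCDHB5 and 1.69 for PCDHB12. The widest were 2.06 for PCDHB11, 2.19 for PCDHA2, 2.21 for PCDHAC2 and 2.89 for PCDHAC1. The median difference over all genes tested was 0.75.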

How the results depend on the processing

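In H82 quantile normalization left 0 falls of all 9, and of the 5 alpha, 3 beta and 1 gamma falls, and gave 2 rises (1 alpha, PCDHA3, and 1 beta, PCDHB2). It turned PCDHAC1 to 0.077, PCDHB12 to 0.16 and PCDHB4 to 0.26 on the log2 scale. In H146 it gave 2 falls, both gamma, and 1 gamma rise of 4, and between the lines 6 more positive responses of 26, with PCDHGC3 turned to -0.048. The cause was not tested. The median of ratios left 3 alpha falls and gave 1 rise, a beta gene, in H82, and left 2 gamma rises in H146. Its log2 ratios of summed TPM were -1.003 (alpha), -0.50 (beta) and -1.53 (gamma) in H82 and 1.09 (beta) and -0.066 (gamma) in H146, against -1.49, -0.99, -2.02, 1.41 and 0.24 as deposited. No filter gave 16 falls in H82, 6 of them gamma, 7 gamma rises in H146, and 40 more positive and 0 more negative responses in H146. In each of these fits 55 members were tested. Without trend, 1 beta gene rose in H82. A pseudocount of 0.1 left 0 more negative responses and turned the difference of PCDHGC4 to 0.20.

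Leaving out 1 library gave 2 to 9 falls in H82 (1 to 5 alpha, 0 to 3 beta, 0 to 1 gamma). The low counts came from leaving out an untreated library, where the filter let only 6 members, 0 of them gamma, be tested. In H146 leaving out 1 library gave 15 to 20 rises (3 to 5 alpha, 9 to 12 beta, 1 to 4 gamma) and 1 fall. Between the lines it gave 24 to 26 more positive and 0 to 1 more negative responses. With no filter, and chosen after seeing the data, it gave 5 to 14 falls in H82 and 11 to 24 rises in H146, and the median of ratios gave 6 and 17. The log2 ratios of summed TPM ran from -1.64 to -1.34 (alpha), -1.14 to -0.89 (beta) and -2.11 to -1.95 (gamma) in H82, and from 1.64 to 2.10, 1.28 to 1.55 and 0.05 to 0.38 in H146, where the gamma ratio was 0.05 without untreated replicate 3.

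Replicate numbers are shared by the groups, but the deviations of same-numbered libraries correlated at -0.11 to 0.03, so the numbers were not taken as pairs. A replicate block left 8 falls in H82 and 16 rises in H146, 1 of them gamma against 4, and 0 more negative responses between the lines. Of the named members' 640 recomputed fold changes, 567 kept their direction and side of the threshold.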
